A study of Mus musculus with 20 samples.

Results

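The Fabp5 and Fabp4 locus was taken as a window of 350 kb on mouse chromosome 3, chr3:9980000-10330000 in build mm9. Its members were all peaks that overlap the window in 19 deposited peak lists, 111 of 284878 peaks in all. The window was set by position, not by any peak value, but it was chosen with earlier results of these data known. Fabp4 and Fabp5 encode small proteins of the cytosol that carry fatty acids. Fabp4, also called aP2, is a classic marker of the mature fat cell and a textbook target of PPARgamma, the nuclear receptor that drives adipocyte differentiation as a partner of RXR. Fabp5, the epidermal form, is made in many cell types, fat among them. C/EBPbeta and C/EBPdelta are early transcription factors of adipogenesis and are known to act upstream of PPARgamma.

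The cells were 3T3-L1, an established mouse line of preadipocytes. Post-confluent cells (day 0) were induced with serum (fetal bovine), insulin, 3-isobutyl-1-methylxanthine, which raises cyclic AMP, and the glucocorticoid dexamethasone. From day 2 they received insulin with fetal bovine serum, and later the serum alone. DNase I hypersensitive site sequencing (DHS-seq), which lists open chromatin, was done before induction (day 0), after 2 hours and 4 hours, and on day 1, day 2 and day 6. Chromatin immunoprecipitation sequencing (ChIP-seq) covered C/EBPbeta on day 0, at 2 hours, at 4 hours and on day 2. It further covered C/EBPdelta at 4 hours and on day 0, the glucocorticoid receptor GR, Stat5a and RXR at 4 hours, and PPARgamma on day 6 and day 2. RNA polymerase II, written RNA Pol II, was profiled at 4 hours and on day 0. Each group was 1 library, so no value has a replicate error and no difference was tested. An input control was not analysed here. The lists give positions only, without heights or reads, so depth is unknown and the adipocyte label was not checked against expressed markers. Lists ranged from 2076 peaks (RXR at 4 hours) to 35389 peaks (DHS day 1).

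In the order of the GRCm38.p6 annotation, the protein-coding genes run Fabp5, Pmp2, Fabp9, Fabp4, Fabp12 and Impa1. Pmp2, Fabp9 and Fabp12 belong to the same family of lipid binding proteins, and Impa1 encodes an inositol monophosphatase. That annotation is of another build than the peaks, so no peak was assigned to a promoter, exon or intron. From general knowledge of the mouse map, not measured here, Fabp5 lies at the low end of the window, near the first RNA Pol II peak described below. Fabp4 lies near the other one and is read towards lower positions.

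The locus carried few DHS peaks up to 4 hours, 7 on day 1 and many on day 2. PPARgamma was profiled on day 2 and day 6 alone, so the lists do not show when its peaks appeared. C/EBPbeta was not profiled on day 1 or day 6. The DHS lists held 1 peak in the window on day 0, 0 at 2 hours, 2 at 4 hours, 7 on day 1, 24 on day 2 and 7 on day 6. C/EBPbeta had 3 peaks on day 0, 5 at 2 hours, 7 at 4 hours and 20 on day 2. PPARgamma had 18 peaks on day 6 and 13 on day 2. Together, DHS of day 2, C/EBPbeta of day 2 and the PPARgamma lists supplied 75 of the 111 peaks. RNA Pol II had 2 peaks at 4 hours and 0 on day 0, and C/EBPdelta had 2 at 4 hours and 0 on day 0. GR, Stat5a and RXR had 0 peaks in the window at 4 hours. Thus 13 lists had a peak in the window and 6 had none.

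**Figure D1:**
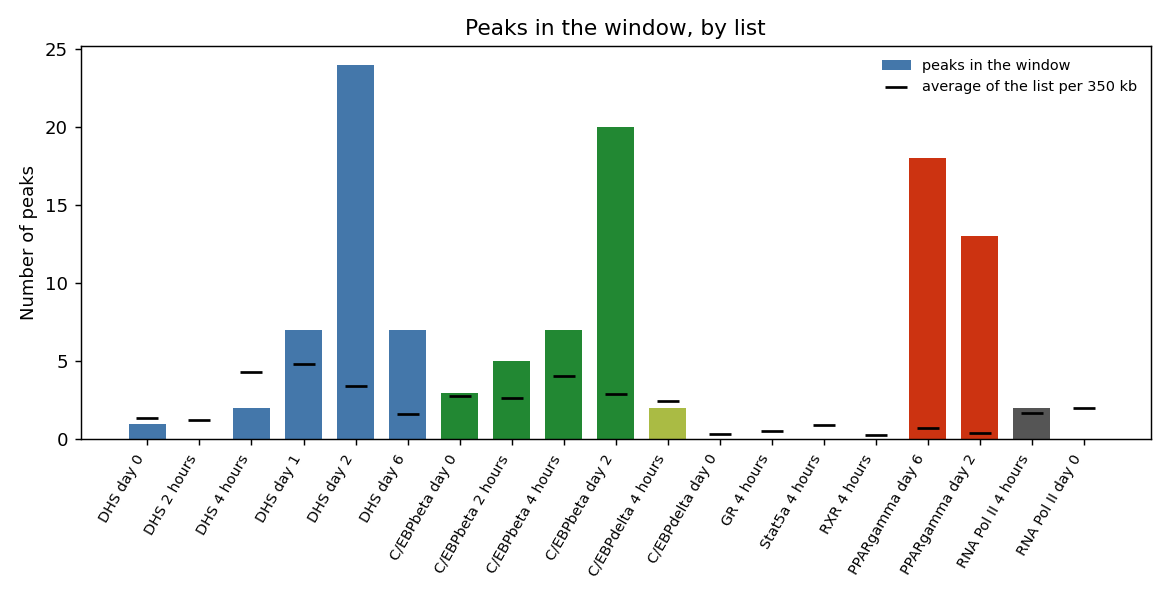
Bars give the number of peaks in the 350 kb window (y axis) for each of the 19 lists (x axis; colours mark the target), and black dashes give the average number per 350 kb of the same list. DHS of day 2 (24 peaks), C/EBPbeta of day 2 (20 peaks) and PPARgamma on day 6 and day 2 (18 and 13 peaks) stand far above their dashes.

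Set against the length of each list, the day 2 and PPARgamma counts were high. Averaged over the span from the first to the last peak of each chromosome, 350 kb held 0.746 peaks of PPARgamma on day 6 and 0.43 on day 2. The averages were 3.41 for DHS of day 2 and 2.92 for C/EBPbeta of day 2. The DHS lists of 4 hours (31751 peaks) and day 1 (35389 peaks) were longer than that of day 2 (25097 peaks). In stretches of 350 kb laid end to end over the chromosomes, 1 of 7379 held at least 18 PPARgamma peaks of day 6, and 1 of 7379 held at least 13 of day 2. In each case it was the window itself. Both results depend on where the stretches start, and the window was chosen with earlier results of these data known. With stretches starting at every peak, the most outside the window was 17 peaks on day 6 and 13 on day 2. For DHS of day 2, 10 of 7379 stretches held 24 or more peaks, and for C/EBPbeta of day 2, 10 held 20 or more, the window among them in both cases. The earlier DHS counts did not stand out: 3488 of 7379 stretches held 1 or more peaks of day 0, 4167 held 2 or more of 4 hours and 2359 held 7 or more of day 1.

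**Figure D2:**
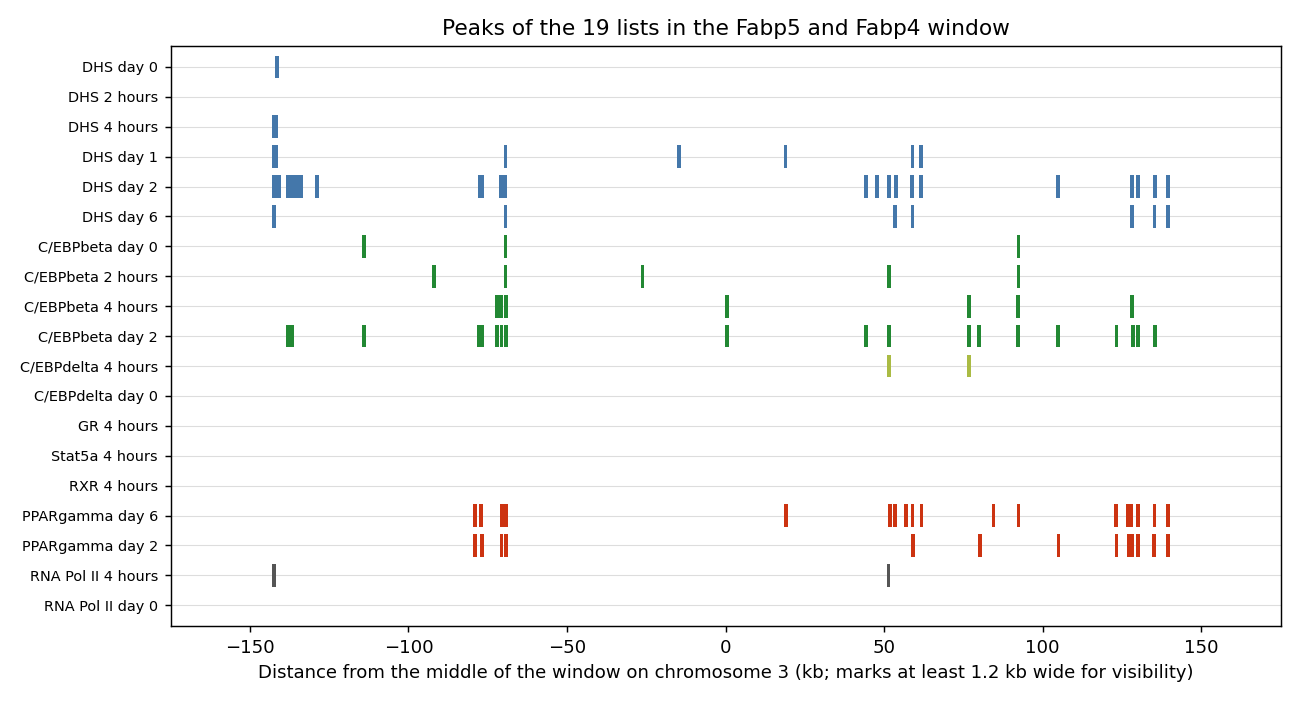
Each mark is a peak, placed by its distance in kb from the middle of the window (x axis), with a row for each of the 19 lists; marks are drawn at least 1.2 kb wide, so that close neighbours join. DHS marks before day 1 lie at the low end alone, while many marks of DHS and C/EBPbeta of day 2 and of PPARgamma share groups further along the window. The group at the low end has DHS and C/EBPbeta marks of day 2 and no PPARgamma mark.

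Merging peaks that share at least 1 bp gave 37 regions in the window. Of these, 11 held a peak of 1 list, 18 of 2 to 4 lists and 8 of 5 or more lists, and the highest number was 9 lists. Regions separated by at most 5000 bp were joined into 13 clusters, numbered from low to high position, of which 8 were 1 region each. Clusters 1, 4, 9 and 13 held 26 of the 37 regions and 88 of the 111 peaks. Cluster 1 lay at the low end, over 14.2 kb at chr3:10012267-10026475. Cluster 4 covered 10.5 kb at chr3:10075592-10086116, cluster 9 covered 18.1 kb at chr3:10198958-10217042, and cluster 13 covered 17.1 kb at chr3:10277882-10294984.

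**Figure D3:**
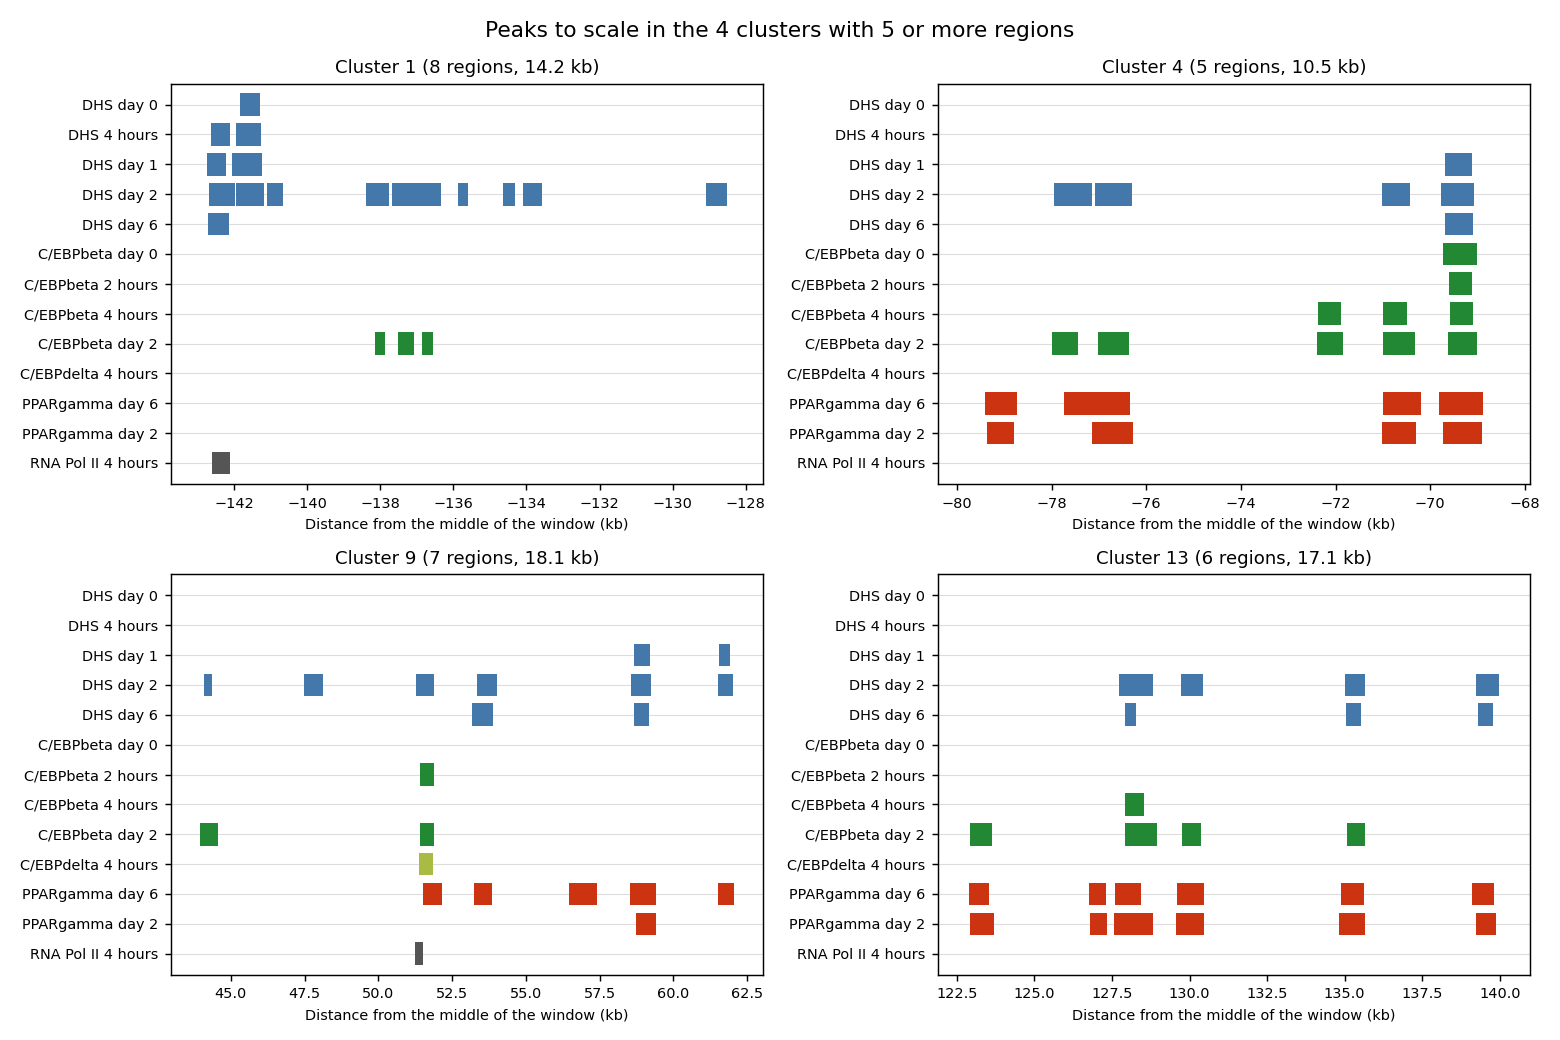
Peaks are drawn to scale in the 4 clusters with 5 or more regions, with distance from the middle of the window in kb on the x axis and a row for each of the 13 lists with a peak in the window. Cluster 1 holds no PPARgamma mark and the DHS marks of day 0 and 4 hours; in clusters 4 and 13 PPARgamma of day 6 and day 2 stack above each other, and in cluster 9 PPARgamma has 5 marks on day 6 and 1 on day 2.

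Cluster 1, the stretch nearest to Fabp5, was the part of the window with open chromatin before and soon after induction. Its first region, chr3:10012267-10013833, held 8 of its DHS peaks and 1 RNA Pol II peak, and consisted of a pair of sites side by side. The upper site was the DHS peak of day 0 (10013163 to 10013717), listed again at 4 hours, on day 1 and on day 2, but not at 2 hours or on day 6. The lower site was listed by DHS at 4 hours (10012365 to 10012894), on day 1, on day 2 and on day 6, and not on day 0 or at 2 hours. The RNA Pol II peak of 4 hours (10012392 to 10012886) lay within that lower DHS peak of 4 hours. No RNA Pol II peak was listed there on day 0. The sites were merged because a day 2 peak ending at 10013015 overlaps a day 1 peak starting at 10012941. They separate when peaks are linked by sharing 50% or more of the shorter one, and the lower site then counts as gained by 4 hours.

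Beyond this pair, cluster 1 filled with open chromatin on day 2. The remaining 7 regions of the cluster each held a DHS peak of day 2 and no DHS peak of another time. They extended up to 10026475. C/EBPbeta of day 2 had 3 peaks among them, 1 in the region chr3:10016602-10017242 and 2 in the region chr3:10017323-10018667, with no C/EBPbeta peak at the earlier times. No PPARgamma peak was listed in cluster 1 on day 6 or day 2.

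Cluster 4 lay between the low end and the middle of the window and held 4 PPARgamma regions, each listed on day 6 and on day 2. The region chr3:10085189-10086116 held peaks of 9 lists, the most in the window. These were C/EBPbeta at all 4 times, DHS on day 1, day 2 and day 6, and PPARgamma on day 6 and day 2. C/EBPbeta was therefore listed there from day 0 on, and DHS from day 1 on. The neighbouring region chr3:10083973-10084800 held C/EBPbeta at 4 hours and on day 2, DHS on day 2 and PPARgamma on both days. The region chr3:10077018-10078721 held 2 peaks each of DHS and C/EBPbeta of day 2 beside its PPARgamma peaks. The region chr3:10075592-10076270 held PPARgamma peaks alone. A further region at 10082602 to 10083149 held C/EBPbeta at 4 hours and on day 2 and no PPARgamma.

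Cluster 9, the stretch around Fabp4, held 5 PPARgamma peaks on day 6 and 1 on day 2. The day 6 list was the longer (5493 peaks, against 3168 on day 2), so the difference may not be a gain over time. The region chr3:10206255-10207149 held peaks of 6 lists. RNA Pol II (10206255 to 10206505) and C/EBPdelta (10206364 to 10206842) were listed there at 4 hours, C/EBPbeta at 2 hours and on day 2, DHS on day 2 and PPARgamma on day 6. No RNA Pol II peak was listed in cluster 9 on day 0, and no DHS peak before day 1. The next region, chr3:10208185-10209014, held DHS of day 2 and day 6 and PPARgamma of day 6. The region chr3:10211459-10212419 was a PPARgamma peak of day 6 with no other list.

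The region chr3:10213533-10214409 was the part of cluster 9 with PPARgamma on both days, and it held DHS on day 1, day 2 and day 6. No C/EBP peak was listed in it at any time. A PPARgamma-responsive enhancer upstream of Fabp4 is well known from earlier work in fat cells, and no peak was matched to it here. The region chr3:10216506-10217042 held DHS of day 1 and day 2 and PPARgamma of day 6. The 2 lowest regions of the cluster, from 10198958 to 10203115, held DHS of day 2 and, in 1 of them, C/EBPbeta of day 2, without PPARgamma.

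Cluster 13, at the high end, was bound by PPARgamma at each of its 6 regions on day 6 and on day 2. None of them had a DHS peak before day 2 or a C/EBPbeta peak on day 0 or at 2 hours. The region chr3:10282572-10283961 held 6 lists, DHS of day 2 and day 6, C/EBPbeta of 4 hours and day 2 and both PPARgamma lists. The region chr3:10289829-10290647 held DHS of day 2 and day 6 and C/EBPbeta of day 2 beside PPARgamma. The region chr3:10284550-10285473 held DHS and C/EBPbeta of day 2. The region chr3:10294112-10294984 held DHS of day 2 and day 6 without C/EBPbeta. Of the others, chr3:10277882-10278692 held C/EBPbeta of day 2 and chr3:10281747-10282336 held PPARgamma alone.

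The remaining PPARgamma regions lay outside these clusters. PPARgamma of day 6 was listed at chr3:10173605-10174229 with DHS of day 1, at chr3:10239231-10239731 with no other list, and at chr3:10246989-10247641 with C/EBPbeta of all 4 times and no DHS. PPARgamma of day 2 was listed without day 6 at chr3:10234838-10235404 with C/EBPbeta of day 2, and at chr3:10259642-10260300 with DHS and C/EBPbeta of day 2. The 16 regions outside the rule for named regions were 276 to 1345 bp wide. Of these, 9 held DHS of day 2 (6 of them nothing else), 9 held C/EBPbeta of at least 1 time, and 7 lay in cluster 1.

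Open chromatin was compared over time by merging the 6 DHS lists, which gave 25 regions in the window. On day 2, 19 of these 25 regions were listed for the first time (76%, exact 95% interval 54.9 to 90.6), against 9.47% of 46760 regions in the whole series. By contrast, 0 of 25 were first listed at 4 hours, where 40.1% of all regions were. The first listing fell on day 0 for 1 region and on day 1 for 5. Counted as gained by 4 hours, that is listed then and absent on day 0, were 0 of 25 regions (47.2% of all regions), and 0 of 25 were lost by 4 hours (1.29% of all). On day 6 and not on day 0, 6 of 25 were listed (24%, 9.36 to 45.1; 9.55% of all), and 0 were lost by day 6 (5.82% of all). The 0 gained by 4 hours and the 0 lost by day 6 rest on the merged pair of sites in cluster 1. Each becomes 1 when the pair is separated. The 0 first listed at 4 hours rests on the same pair, whose lower site was first listed then. The share first listed on day 2 follows in large part from the DHS counts in the window, 24 on day 2 and 1, 0, 2 and 7 before it. Of the regions first listed then, 7 were neighbours in cluster 1. With gaps of up to 500 bp joined, 14 of 20 regions were first listed on day 2 (8.06% of all). Intervals cover counting over regions of these libraries and not the spread between cultures. They treat neighbouring regions as separate.

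**Figure D4:**
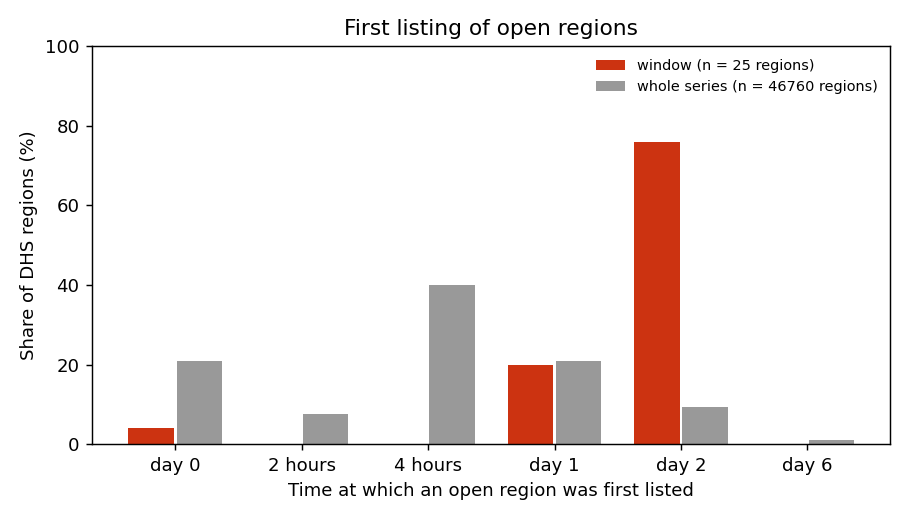
Bars give the share of DHS regions (y axis, %) by the time at which they were first listed (x axis), for the 25 regions of the window and for the 46760 regions of the whole series. The window peaks on day 2 (76%), the whole series at 4 hours (40.1%).

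Most regions open on day 2 were absent from the day 6 list. Listed on day 2 without day 6 were 16 of 25 regions (31.2% of all regions), and on day 6 without day 2 there were 0 of 25 (3.16% of all). These shares are of all DHS regions, also those not listed on day 2. Peak by peak, 7 of the 24 DHS peaks of day 2 overlapped one of day 6 (29.2%, 12.6 to 51.1). In the whole day 2 list, 40.3% did. All 7 DHS peaks of day 6 overlapped a DHS peak of day 2, as did 87% of the 11936 peaks of the whole day 6 list. Of the same 7 peaks, 6 overlapped PPARgamma of day 6, against 14.6% of the whole list. The exception was the lower site of cluster 1. The day 6 list was the shorter (11936 peaks, against 25097 on day 2). Cut to equal length by width, the lists gave 5 of 11 regions on day 2 without day 6. The reverse held for 4. Of the 24 DHS peaks of day 2, 12 overlapped C/EBPbeta of day 2 (35.7% of the whole list), 12 overlapped PPARgamma of day 6 (12.6%) and 9 overlapped PPARgamma of day 2 (9.42%). Among the 19 regions first listed on day 2, 11 held C/EBPbeta of day 2 (41.8% of such regions in the whole series). PPARgamma of day 6 was in 9 (21.4%) and that of day 2 in 7 (15.8%), and 6 held none of the 3 lists (48.9%). The window was rich in peaks of these lists, so shares above those of the whole series restate their counts in part. In the other direction, 9 of 13 PPARgamma peaks of day 2 overlapped DHS of day 2 (74% of the whole list). For PPARgamma and DHS of day 6 it was 6 of 18 (30.8%).

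C/EBPbeta peaks too were most frequent on day 2, and a few sites were present from the start. The 4 C/EBPbeta lists merged into 22 regions in the window. Of these, 13 were listed on day 2 and not at 4 hours (59.1%, 36.4 to 79.3), against 14.5% of 41360 regions in the whole series. None of the 22 was listed at 4 hours and not on day 2, against 35% of all. Peak by peak, 7 of the 20 C/EBPbeta peaks of day 2 overlapped one of 4 hours (72.1% of the whole list), and 7 of the 7 peaks of 4 hours overlapped one of day 2 (51.4%). Between 4 hours and day 0, 5 of 22 were gained (36.3% of all) and 1 was lost (13.5% of all), at chr3:10040808-10041387, where C/EBPbeta was listed again on day 2. With peaks at or above their list's median width, and with lists cut to equal length, 2 were gained and 2 lost, so the excess of gained regions was not kept. Sites listed at all 4 times were chr3:10085189-10086116 in cluster 4 and chr3:10246989-10247641. At 2 further sites, 10062932 to 10063364 and 10128511 to 10129097, C/EBPbeta was listed at 2 hours alone.

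The early C/EBPbeta sites were not in the open chromatin lists of their time. Of the 7 C/EBPbeta peaks of 4 hours, 0 overlapped the DHS list of 4 hours, against 45.6% of all 29957 peaks of that list, and 3 overlapped the DHS list of day 2 (33.6% of all). The DHS list of 4 hours had 2 peaks in the window. Both lay in the first region of cluster 1, which held no C/EBPbeta peak. Few overlaps were therefore possible, and the 0 is no sign that these sites were closed. Of the 20 C/EBPbeta peaks of day 2, 13 overlapped DHS of day 2 (65%, 40.8 to 84.6; 42.4% of all), 10 overlapped PPARgamma of day 6 (13% of all) and 9 overlapped PPARgamma of day 2 (10.4% of all). The window was rich in peaks of these lists, so shares above those of the whole list restate their counts in part. Where C/EBPbeta and DHS of day 2 overlapped (13 pairs), the middles lay a median of 73 bp apart, against 57 bp in the whole lists. For PPARgamma and C/EBPbeta of day 2 (9 pairs) the median was 64 bp, against 70 bp. Where C/EBPbeta of day 2 and of 4 hours overlapped (7 pairs), the middles were a median of 20 bp apart, against 30.25 bp in the whole lists.

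Of the factors profiled at 4 hours, the C/EBPs alone had peaks in the window. The other lists were short and averaged 0.554 (GR), 0.948 (Stat5a) and 0.282 (RXR) peaks per 350 kb. Having 0 peaks therefore does not set the window apart. The averages at 4 hours were 4.07 for C/EBPbeta (7 in the window) and 2.49 for C/EBPdelta (2 in the window). Merging the lists of the 5 factors profiled at 4 hours (both C/EBPs, GR, Stat5a, RXR) gave 8 regions in the window. That 0 of these held 3 or more factors (15.7% of 35341 regions in the whole series) follows from the absence of GR, Stat5a and RXR peaks and is no further result. C/EBPbeta and C/EBPdelta were together at chr3:10231359-10232138, where C/EBPbeta was listed on day 2 as well and PPARgamma was not listed.

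Most PPARgamma sites of day 2 were listed again on day 6. The PPARgamma lists merged into 20 regions spread over 219 kb, from cluster 4 to cluster 13, of which 15 lay in clusters 4, 9 and 13. Their middles were a median of 4.25 kb apart (19 gaps, 1.16 to 88.3 kb), against 80.6 kb in the whole series. The window's length limits its gaps, so this restates the high count of PPARgamma peaks and is no further result. Both days shared 11 of the 20 regions. On day 6 alone PPARgamma held 7 of 20 (35%, 15.4 to 59.2; 51.7% of 6531 regions in the whole series), and on day 2 alone it held 2 (16.1% of all). The day 6 list was the longer (5493 peaks, against 3168 on day 2). With the lists cut to equal length by width, 1 region was on day 6 alone and 6 on day 2 alone (34% and 33.9% of all), so the direction turned round. Peak by peak, 11 of the 18 peaks of day 6 were found on day 2 (61.1%, 35.7 to 82.7; 38.5% of all). Of the 13 peaks of day 2, 11 were found on day 6 (84.6%, 54.6 to 98.1; 66.9% of all). Where they overlapped, the middles of day 6 and day 2 peaks lay a median of 61 bp apart, against 65.5 bp in the whole lists.

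Few of the PPARgamma regions had an open chromatin or C/EBPbeta peak before day 1. Of the 20 regions, DHS held 0 on day 0 (10.9% of all PPARgamma regions), 0 at 2 hours (14.7%), 0 at 4 hours (33.6%), 4 on day 1 (43.2%), 12 on day 2 (57.5%) and 6 on day 6 (27.6%). At least 1 DHS list held 13 of 20 (64.4% of all). The exact 95% interval of the window's share was 0 to 16.8% on day 0, at 2 hours and at 4 hours, and 5.73 to 43.7% on day 1. These intervals count neighbouring regions of the same libraries, so they are no test against the whole series. The DHS lists of day 0, 2 hours and 4 hours had 1, 0 and 2 peaks in the window, so few overlaps were possible then. All of these peaks lay in cluster 1, which held no PPARgamma peak. C/EBPbeta held 2 of the 20 regions on day 0 (30.4% of all), 3 at 2 hours (31.9%) and 4 at 4 hours (40.5%). On day 2 it held 11 (51.6%). Its lists of day 0, 2 hours and 4 hours had 3, 5 and 7 peaks in the window, so few overlaps were possible here too. Of the 7 C/EBPbeta peaks of 4 hours, 4 overlapped PPARgamma of day 6, against 7.21% of that whole list. Of the 3 peaks of day 0, 2 did, against 8.12%. The many PPARgamma peaks in the window make such overlaps more likely. Any of the 5 factors of 4 hours held 5 of 20 (25%, 8.66 to 49.1; 42.6% of all). On day 2 itself, 9 of 13 PPARgamma peaks overlapped DHS (69.2%, 38.6 to 90.9; 74% of all) and 9 of 13 overlapped C/EBPbeta (68.6% of all). On day 6, 6 of 18 overlapped DHS (33.3%, 13.3 to 59; 30.8% of all). DHS and C/EBPbeta of day 2 were both found at 7 of the 13 PPARgamma peaks of day 2 (57.5% of 3168 in the whole list).

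PPARgamma regions of both days and of day 6 alone were also set side by side. DHS of day 2 held 8 of the 11 regions of both days and 3 of the 7 regions of day 6 alone, against 80.7% and 42% in the whole series. C/EBPbeta of day 2 held 7 of the 11 and 2 of the 7, against 72.7% and 35.3%. These shares rest on few regions, and their difference was not tested.

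RNA Pol II was listed in the window at 4 hours and not on day 0. Both of its regions, in the first region of cluster 1 and at chr3:10206255-10207149 in cluster 9, were gained by 4 hours (23.3% of 18710 RNA Pol II regions in the whole series), and 0 were lost (35.2% of all). Both counts follow from the 0 peaks of day 0. The lists averaged 1.71 peaks per 350 kb at 4 hours and 2.01 on day 0. Of 7379 stretches of 350 kb, 2636 held 2 or more peaks at 4 hours, so that count did not stand out. The peaks were 495 bp and 251 bp wide, below the median of 536 bp for that list. RNA Pol II was not profiled later here. The lists therefore do not cover day 2, when DHS peaks were most frequent, or the days on which PPARgamma was profiled.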

How the data were processed

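The authors deposited 1 peak list per sample, and each file holds 3 columns, the chromosome and the first and last position of a peak, without a score or read count. The submitters' processing notes give mm9 as the build. The peak caller, its threshold and read depth are not given in the sources used here. A shallower library or stricter threshold gives a shorter list, so absence from a list does not show that a site was closed or unbound.

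Positions are printed counted from 1. Peaks were called shared at an overlap of at least 1 bp, and merged regions were scored as present or absent in each list, also over all lists as background. Regions were named if they held PPARgamma, RNA Pol II, GR, Stat5a or RXR, or peaks of 8 or more lists. Shares carry Clopper-Pearson (exact) 95% intervals. The counting was tested on simulated data. Calculations ran in Python 3.11.15 with SciPy 1.17.1 and NumPy 2.4.6, and figures in Matplotlib 3.10.9. The window, lists and comparisons were chosen with earlier results of these data known. Alternatives were other overlap rules, peak widths and list lengths.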

Additional observations from a re-analysis of the deposited data

How the results depend on the processing

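Of 188 alternative values, 135 stayed within 1.5 times the reported count, 42 were lower and 11 higher beyond that. Some comparisons were added after seeing the data. These were day 2 with 4 hours and day 6, first listing on day 2, and PPARgamma regions by each DHS and C/EBPbeta list. Others were both lists of day 2 at PPARgamma peaks and stretches starting at every peak. Also outside the planned comparisons were peak by peak overlaps, distances between middles, PPARgamma spacing and stretches laid end to end. The same holds for PPARgamma regions by day and for the lists held by regions first listed on day 2. No paired analysis was possible because each group is 1 library and no result comes from a test. The window's 111 peaks were the same by peak middle. Using peaks at or above the median width of their list, which leaves fewer peaks, gave 58 peaks and 22 merged regions. It gave 1 DHS region gained by 4 hours, 2 C/EBPbeta regions gained and 2 lost by 4 hours, and 2 PPARgamma regions gained and 1 lost by day 6. It left 0 RNA Pol II regions gained, 1 PPARgamma region with a factor of 4 hours and 6 in DHS lists. It left 10 of 14 DHS regions first listed on day 2 (9.42% in the whole series) and 9 of day 2 not listed on day 6. Peaks set to 200 bp, and peaks linked by sharing 50% or more of the shorter one, each gave 1 DHS region gained by 4 hours and 1 lost by day 6, since they separate the pair of sites in cluster 1. With 200 bp, 1 C/EBPbeta region of 4 hours was not listed on day 2. A gap of up to 500 bp moved none of these counts beyond the tolerance. Lists cut to equal length by width, which removes peaks by construction, gave 1 DHS region lost by 4 hours. They gave 2 C/EBPbeta regions gained and 2 lost by 4 hours, and 1 PPARgamma region gained and 6 lost by day 6. They left 0 PPARgamma regions with a factor of 4 hours, 1 in DHS lists and 1 PPARgamma region of day 2 with DHS and C/EBPbeta of day 2. They left 6 of 11 DHS regions first listed on day 2 (9.39% in the whole series), 5 of day 2 not listed on day 6, and 4 of day 6 not listed on day 2. The excess of gained over lost regions therefore depends on list length for PPARgamma by day 6 and for C/EBPbeta by 4 hours. The direction of the DHS change between day 2 and day 6 does so in part.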
